A study of Mus musculus with 27 samples.

Results

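Cells sorted from the ventral tegmental area (VTA) were compared with cells sorted from the nucleus accumbens (NAc) of C57/BL6 mice at postnatal day 30 (P30), the juvenile age of the series. The comparison used the 3 VTA and the 3 NAc libraries that the labels place at P30, which are 6 of 27 libraries from 3 regions and 3 ages. Per the design text, dissected tissue was dissociated and neurons with the dopamine transporter (DAT) were isolated by flow cytometry, and the samples are labelled as dopaminergic neurons. How DAT was marked for the sort is not given in the sources used here. RNA was read with SMART-seq2, a method that amplifies whole transcripts from few cells and does not mark the strand. The design names 5 mice for each age and does not tie mice to libraries, so libraries of the VTA and of the NAc may share mice, and a library may pool several. The p-values and standard errors below come from a fit of all 27 libraries. They therefore measure a spread between libraries that is pooled over the regions and ages and may be technical.

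The VTA of the midbrain holds dopaminergic neurons whose axons end in the NAc, and this projection is known for its part in reward and motivation. The NAc lies in the ventral striatum and consists mainly of GABAergic projection neurons, which carry dopamine receptors and make neuropeptides such as enkephalin. Dopamine is made by tyrosine hydroxylase and aromatic amino acid decarboxylase, loaded into vesicles by the vesicular monoamine transporter and taken back up by DAT.

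Values are FPKM (fragments per kilobase of gene length, relative to the reads of the library) rescaled so that every library has the same total of reads in genes. The VTA libraries held 8313437 to 11064792 reads in genes and the NAc libraries 6660850 to 10169545. Genes with at least 1 read numbered 14546, 14430 and 6786 in VTA replicates 1, 2 and 3, against 16779 to 17928 in the NAc libraries. VTA replicate 3 stood apart. Across the genes tested, its rank correlation with the other VTA libraries was 0.494 in each case, against 0.768 between VTA replicates 1 and 2 and 0.729 to 0.753 among the NAc libraries. Its 10 most abundant genes took 29.7% of its reads, against 19.1% and 22.0% in VTA replicates 1 and 2 and 11.8% to 13% in the NAc libraries. Counts over gene lists are therefore given with this library and without it. For genes that passed with all libraries, the result without it is given where the call ended or the log2 difference moved by over 1.5 times. Differences of genes that did not pass could also move without this library, and these are not all given.

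The cells were first checked against the markers of the labelled cell type. Slc6a3, which encodes DAT, had 2.64, 3.62 and 0 rescaled FPKM in VTA libraries, against 0, 2.32 and 0 in NAc libraries. Th, tyrosine hydroxylase, had 2.26, 0 and 0 in VTA libraries and no read in any NAc library. Slc18a2, the vesicular monoamine transporter, had 0.689, 0.696 and 93.4 in VTA libraries, against 1.73, 0.864 and 0.947 in NAc libraries. The high value of Slc18a2 thus came from VTA replicate 3 alone, a library in which neither Slc6a3 nor Th had a read.

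Ddc, aromatic amino acid decarboxylase, had 0.0203, 0 and 0 in VTA libraries, against 3.92, 1.6 and 0.370 in NAc libraries. Nr4a2, which encodes a nuclear receptor that midbrain dopamine cells depend on, had 0.0223, 0 and 0.0238 in VTA libraries, against 4.14, 2.32 and 0.518 in NAc libraries. None of these 5 genes passed the test between regions, with adjusted p-values of 0.581 for Slc6a3, 0.719 for Th, 0.300 for Slc18a2, 0.143 for Ddc and 0.0877 for Nr4a2 (limma over all genes, Benjamini-Hochberg, threshold 0.05). The transcription factor genes Pitx3, En1 and Foxa2 had 0 reads in all 6 libraries. For Pitx3, 3 reads, the limit taken for a count of 0, would have been a value of 0.178 to 0.295 depending on the library.

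Microglial transcripts were abundant in both regions. C1qa, a chain of the complement protein C1q, had 8921, 9316 and 1250 in VTA libraries, against 3963, 2422 and 3875 in NAc libraries. The purinergic receptor gene P2ry12 had 1796, 1610 and 47.0 in VTA libraries, against 1131, 889 and 977 in NAc libraries. Summed over 8 microglial markers, the level was 29922, 28349 and 7974 in VTA libraries, against 13908, 9850 and 13459 in NAc libraries, while 11 dopaminergic markers summed to 5.63, 4.49 and 93.4 in VTA libraries and 14.3, 17.1 and 4.07 in NAc libraries. The data thus go against the label of dopaminergic neurons in both regions, and the libraries are called VTA and NAc libraries from here on. In such bulk libraries, fewer cells of a type and less RNA per cell cannot be told apart.

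**Figure D1:**
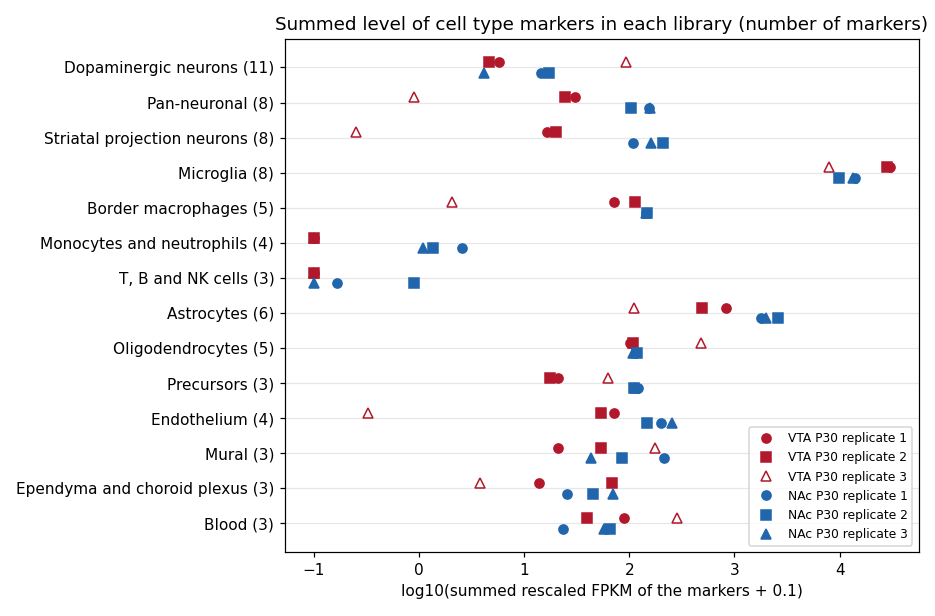
Summed rescaled FPKM of cell type markers in each library, on a log10 scale after adding 0.1, with VTA libraries in red, NAc libraries in blue and VTA replicate 3 as open triangles. Microglial markers had the highest sums in all 6 libraries, and pan-neuronal and striatal markers were lower in the 3 VTA libraries than in the NAc libraries.

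Of 18888 genes tested, 2629 (13.9%) differed between VTA and NAc libraries. Of these, 95 genes (0.503% of those tested) were higher in VTA libraries and 2534 (13.4%) were lower. The median log2 difference over all genes was -0.88, so the whole distribution lay toward lower values in VTA libraries, and 1609 (63.5%) of the genes called lower had no read in VTA replicate 3. Without that library 1004 genes (5.32%) passed, 115 (0.609%) higher and 889 (4.71%) lower, around a median of -0.49. Of the calls with all libraries, 40 higher and 846 lower passed in the same direction without VTA replicate 3. After quantile normalization, which gives each library the same distribution, 714 genes (3.78%) passed, 272 (1.44%) higher and 442 (2.34%) lower, around a median of 0.02. The share of calls that were higher was thus 3.61%, 11.5% and 38.1% under these 3 treatments. Every library of the VTA lay above every library of the NAc for 313 genes (1.66%), and below for 5431 (28.8%).

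The plot of single genes shows, by library, the largest differences among genes that met further conditions. These were no overlap between regions, a call in the same direction without VTA replicate 3 and a mean of at least 5. Predicted genes, clones and pseudogenes were left out by name. These conditions were met by 14 higher and 412 lower genes, so most of the eligible higher genes are plotted. Genes higher in VTA libraries included the immediate early genes Ier2 and Egr1, mitochondrially encoded genes, and genes of phagocytes such as C1qc and Ctss. Genes lower in VTA libraries included Penk of striatal projection neurons and neuronal and astrocytic genes such as Gnao1, Camk2a and Mfge8.

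**Figure D2:**
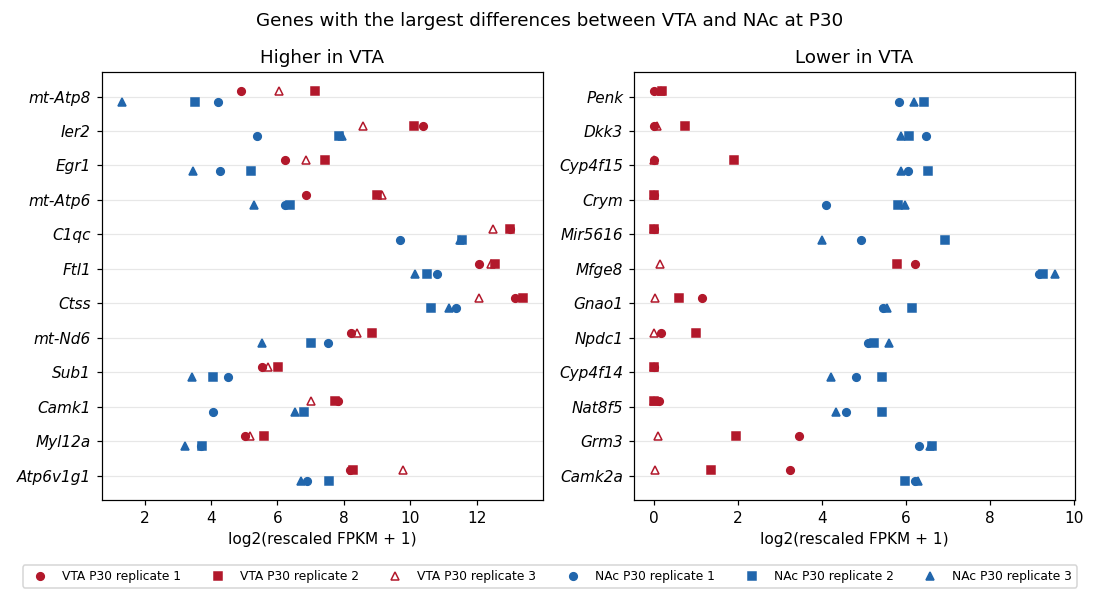
Rescaled FPKM as log2(value + 1), with a point for each library, for genes that met the conditions given in the text. Of these, the 12 with the largest increase (left) and the 12 with the largest decrease (right) in VTA relative to NAc libraries are shown. In each of these genes the 3 VTA libraries (red, replicate 3 open) and the 3 NAc libraries (blue) did not overlap, since the choice of genes required it.

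Immediate early genes are switched on within minutes of a stimulus, and 4 of the 22 tested were higher in VTA libraries while 1 was lower, against 0.503% and 13.4% of all genes. The same counts, 4 and 1, were found without VTA replicate 3, against 0.609% and 4.71% of all genes. After quantile normalization the counts were 3 and 1, against 1.44% and 2.34%. The median log2 difference of the list was 0.55 with all libraries and 1.47 without VTA replicate 3, beside -0.88 and -0.49 for all genes. The 4 higher genes were Dusp1, Jun, Ier2 and Egr1, and the lower gene was Arc. Npas4 did not pass the filter on low values, with 0.510 in NAc replicate 1 and no read in the other libraries.

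Dusp1 encodes a phosphatase that switches off MAP kinases. Its level was 329, 3565 and 1669 in VTA libraries, against 32.3, 422 and 34.5 in NAc libraries. The regions overlapped, since NAc replicate 2 lay above VTA replicate 1. The log2 difference was 3.98 ± 0.80 (SE, n = 3 libraries each, adjusted p = 0.00268).

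Jun encodes a subunit of the transcription factor AP-1, and had 1970.35, 1966 and 404 in VTA libraries, against 25.0, 659 and 301 in NAc libraries. Its log2 difference was 2.75 ± 0.76 (adjusted p = 0.0195), and here too the regions overlapped. After quantile normalization the adjusted p of Jun was 0.132. Fos, the partner of Jun in AP-1, had 2004, 1925 and 527 in VTA libraries, against 839, 429 and 799 in NAc libraries, and did not pass (adjusted p = 0.293).

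Ier2 (chr8:84661331-84662852, GRCm38) encodes a nuclear immediate early protein. It had 1348, 1103 and 379 in VTA libraries, against 41.0, 231 and 243 in NAc libraries, so that all VTA libraries lay above all NAc libraries. The log2 difference was 2.63 ± 0.61 (adjusted p = 0.00652). It was 3.19 without VTA replicate 3 and 2.04 after quantile normalization, where the adjusted p was 0.0539.

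Egr1 (chr18:34859823-34864984) encodes a zinc finger transcription factor. It had 74.6, 172 and 116 in VTA libraries, against 18.2, 35.8 and 10.04 in NAc libraries, again without overlap. The log2 difference was 2.54 ± 0.69 (adjusted p = 0.0178), and it passed both without VTA replicate 3 (adjusted p = 0.0412) and after quantile normalization (adjusted p = 0.0216).

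Arc, which encodes a protein of active synapses and is made mainly in neurons, had no read in the 3 VTA libraries and 25.8, 6.03 and 8.15 in NAc libraries. With 3 reads per library as the limit, Arc was at least 133-fold lower in VTA libraries (adjusted p = 0.00407). Arc and the 4 higher genes thus went in opposite directions.

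The promoters of Dusp1 and Jun are shown because these are 2 of the 4 higher immediate early genes and the promoter table has a window for them. Each window runs from 250 bases before to 50 bases after the gene's start, 5′ to 3′ on the gene's strand, from RefSeq (GRCm38.p6). That of Dusp1 is at chr17:26508423-26508722 and that of Jun at chr4:95052173-95052472, both on the minus strand. Capitals mark matches to the cyclic AMP response element TGACGTCA in Dusp1 and to the AP-1 site TGACATCA in Jun, each searched on both strands.
Dusp1: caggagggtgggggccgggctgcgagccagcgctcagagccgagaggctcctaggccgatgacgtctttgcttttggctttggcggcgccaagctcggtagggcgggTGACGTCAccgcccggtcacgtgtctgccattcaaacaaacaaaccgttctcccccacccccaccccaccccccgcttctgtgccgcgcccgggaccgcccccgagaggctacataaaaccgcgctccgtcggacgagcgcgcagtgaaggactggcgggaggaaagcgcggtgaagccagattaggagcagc
Jun: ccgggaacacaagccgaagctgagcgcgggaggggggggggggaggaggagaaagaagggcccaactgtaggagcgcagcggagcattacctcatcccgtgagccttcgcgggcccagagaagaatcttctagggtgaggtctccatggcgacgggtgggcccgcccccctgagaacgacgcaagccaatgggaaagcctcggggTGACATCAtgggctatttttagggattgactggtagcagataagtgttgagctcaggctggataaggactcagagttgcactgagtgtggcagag
The match in Dusp1 began 143 bases before the start and that in Jun 45 bases before it. TGACGTCA occurred in 1.79% and TGACATCA in 3.62% of 32851 promoter windows of this length. The CArG box, the letters bound by serum response factor, occurred in 1.63% of the windows and in neither of these. These matches describe the letters only, and no binding was measured.

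Mitochondrially encoded genes give the subunits of the respiratory chain that are made inside mitochondria. Of the 13 tested, 4 were higher in VTA libraries and none was lower, against 0.503% and 13.4% of all genes. Without VTA replicate 3 the counts were 6 and 0, against 0.609% and 4.71% of all genes. After quantile normalization they were 4 and 0, against 1.44% and 2.34%. Their median log2 difference was 1.06 (1.31 without VTA replicate 3, 0.72 after quantile normalization), and all 13 had a positive difference. Reads of the mitochondrial genome made up 9.89%, 13.7% and 19.9% of reads in VTA libraries, against 8.14%, 7.32% and 6.05% in NAc libraries. The part of this share in the result was not tested.

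mt-Atp6, a subunit of ATP synthase, had 115, 510.3 and 565 in VTA libraries, against 74.5, 82.7 and 38.6 in NAc libraries. Its log2 difference was 2.36 ± 0.60 (adjusted p = 0.0122). mt-Atp8, a smaller subunit of the same enzyme, had 28.8, 138 and 65.2 in VTA libraries, against 17.4, 10.5 and 1.47 in NAc libraries, with a log2 difference of 3.01 ± 0.69 (adjusted p = 0.00659). The annotated ends of these neighbours overlap, so reads there cannot be assigned to 1 of them.

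mt-Nd2, a subunit of complex I, had 1057, 1649 and 2035 in VTA libraries, against 665, 641 and 355 in NAc libraries, with a log2 difference of 1.51 ± 0.39 (adjusted p = 0.0136). mt-Nd6, another subunit of complex I encoded on the opposite strand, had 295, 463 and 335 in VTA libraries, against 182, 128 and 45.7 in NAc libraries, with a log2 difference of 1.79 ± 0.45 (adjusted p = 0.0107). Without strand, reads of mt-Nd6 and of RNA from the opposite strand cannot be told apart. mt-Nd2 and mt-Nd6 did not pass after quantile normalization (adjusted p = 0.320 and 0.0914). Copies of mitochondrial sequence in the nuclear genome could also share reads with these genes. Of 24 nuclear genes of oxidative phosphorylation, none was higher and 1, Ndufv1 of complex I, was lower, against 13.4% of all genes. Ndufv1 had a log2 difference of -2.48 with all libraries and -0.97 without VTA replicate 3, where it did not pass (adjusted p = 0.0465 and 0.305). The median of these nuclear genes was -0.80 with all libraries and turned to 0.19 without VTA replicate 3.

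Homeostatic microglia genes, which mark these resident macrophages at rest, had a median log2 difference of -0.49 with all libraries and 0.82 without VTA replicate 3, and -0.61 after quantile normalization. The sign of the list thus depended on that library and on the scaling. Of the 17 tested, 1 was higher in VTA libraries, 2 were higher without VTA replicate 3, and none was lower in either fit, against 0.503% and 0.609% of all genes higher. After quantile normalization none passed in either direction. C1qc (chr4:136889804-136893065), a further chain of C1q, had 8312, 8251 and 5810 in VTA libraries, against 825, 3048 and 2922 in NAc libraries. All VTA libraries lay above all NAc libraries, with a log2 difference of 1.92 ± 0.43 (adjusted p = 0.00523). After quantile normalization C1qc did not pass (adjusted p = 0.0883).

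C1qb had 11968, 11207 and 5152 in VTA libraries, against 4555, 3331 and 4383 in NAc libraries, and passed without VTA replicate 3 (adjusted p = 0.0110) but not with it (adjusted p = 0.0575). Trem2, a lipid receptor of microglia, had 403, 344 and 358 in VTA libraries, against 167, 154 and 152 in NAc libraries. The regions did not overlap, and Trem2 did not pass (adjusted p = 0.183). Tmem119, a membrane protein specific to microglia in the brain, had 3730.5, 2958 and 355 in VTA libraries, against 2129, 1672 and 2008 in NAc libraries (adjusted p = 0.789). VTA replicates 1 and 2 were above the NAc libraries in C1qa, P2ry12 and Tmem119, and VTA replicate 3 was below them. The microglial markers Cx3cr1 and Csf1r did not show this order. Cx3cr1 had 261, 160 and 108 in VTA libraries, against 318, 198 and 381 in NAc libraries. Csf1r had 288, 214 and 111 in VTA libraries, against 238, 239 and 334 in NAc libraries. Their log2 differences without VTA replicate 3 were -0.49 and -0.10, and neither passed.

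Ctss, a lysosomal protease that prepares antigens in phagocytes, had 9139, 10682 and 4274 in VTA libraries, against 2658, 1566 and 2311 in NAc libraries (log2 difference 1.81 ± 0.45, adjusted p = 0.0107). Ftl1, the light chain of the iron store ferritin, had 4347, 6026 and 5577 in VTA libraries, against 1802, 1454 and 1139 in NAc libraries (log2 difference 1.87 ± 0.39, adjusted p = 0.00331). Ftl1 has near-identical copies in the genome, so its reads may be split or shared among them. Neither gene passed after quantile normalization, with adjusted p-values of 0.199 for Ctss and 0.0629 for Ftl1. In the lysosome and phagocytosis list of 21 tested genes, Ctss was the only one called higher and Mertk, a receptor for the uptake of dead cells that astrocytes also carry, the only one called lower, against 0.503% and 13.4% of all genes. Without VTA replicate 3, 2 were higher and 2 lower, against 0.609% and 4.71% of all genes, and the log2 difference of Mertk was -1.63 in place of -2.87.

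Antigen presentation genes of class I, which show peptides to CD8 T cells, had 1 of 10 tested higher and none lower, with all libraries and, for a different gene, without VTA replicate 3, against 0.503% and 0.609% of all genes higher. That gene, H2-K1, had 1111, 1185 and 1264 in VTA libraries, against 308, 280.0 and 280.0 in NAc libraries, a log2 difference of 2.03 ± 0.68 (adjusted p = 0.0473). It did not pass without VTA replicate 3 (adjusted p = 0.113) or after quantile normalization (adjusted p = 0.282). H2-D1, its neighbour in the same family, had 1747, 1884 and 388 in VTA libraries, against 650.0, 464 and 621 in NAc libraries, and passed only without VTA replicate 3 (adjusted p = 0.0175, against 0.236 with it). Genes of this family are alike in sequence and their reads may be shared.

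Class II genes, which present peptides on macrophages and other specialised cells, had a median log2 difference of -3.97 over the 6 tested (-1.87 without VTA replicate 3), and 2 were lower, against 13.4% of all genes. H2-Eb1 had 35.0, 0.305 and 0 in VTA libraries, against 319, 73.1 and 49.6 in NAc libraries (log2 difference -4.88 ± 1.45, adjusted p = 0.0276). H2-Aa had 69.4, 0.0642 and 0 in VTA libraries, against 444, 46.6 and 60.9 in NAc libraries, with overlap (log2 difference -4.70 ± 1.42, adjusted p = 0.0305). Replicate 1 was the highest library in each region, and neither gene passed without VTA replicate 3 (adjusted p = 0.152 and 0.171) or after quantile normalization (adjusted p = 0.0504 and 0.0539). Ciita, the master regulator of class II genes, did not pass the filter on low values. Markers of border macrophages, cells at the brain's surfaces and vessels that carry class II, summed to 71.0, 112 and 1.96 over 5 markers in VTA libraries, against 145, 146 and 143 in NAc libraries, and their part in the result was not tested.

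Among 12 inflammatory chemokines and cytokines none passed with all libraries. Without VTA replicate 3, 2 were higher, against 0.609% of all genes. These were Ccl12 (log2 difference 2.47, adjusted p = 0.0379) and Il1a (2.15, adjusted p = 0.0396), and the list's median in that fit was 1.39. After quantile normalization none passed. Il1a had 100.2, 119.6 and 0.147 in VTA libraries, against 20.8, 24.6 and 26.5 in NAc libraries. Of 11 complement genes, C1qc was higher and C4b, a component of the classical pathway, was lower, against 0.503% and 13.4% of all genes. C4b did not pass without VTA replicate 3 (adjusted p = 0.130) or after quantile normalization (adjusted p = 0.127). Without VTA replicate 3 the counts of the complement list were 2 higher and 0 lower, against 0.609% and 4.71% of all genes. Of 18 interferon response genes, 1 was lower with all libraries and without VTA replicate 3, against 13.4% and 4.71% of all genes. This was Stat2 of interferon signalling, with 0.0305, 0.426 and 0 in VTA libraries, against 4.43, 5.43 and 5.07 in NAc libraries (adjusted p = 0.00711). Stat2 did not pass after quantile normalization (log2 difference -1.43, against -2.39 with all libraries).

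Markers of striatal projection neurons were the list with the most members lower in VTA libraries. Of the 18 tested, 11 were lower and none was higher, and without VTA replicate 3 there were 8 lower, against 13.4% and 4.71% of all genes. After quantile normalization 6 were lower, against 2.34%. The list's median log2 difference was -2.70, or -3.37 with the 7 genes that had no read in VTA libraries set at their bound, and -2.33 without VTA replicate 3. All 18 had a negative difference, and in 14 every VTA library lay below every NAc library, against 28.8% of all genes.

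Penk (chr4:4133531-4138819), the precursor of enkephalin, had 0, 0.147 and 0.118 in VTA libraries, against 56.3, 85.6 and 72.1 in NAc libraries. The log2 difference was -6.04 ± 0.69 (adjusted p = 4.08e-05). Adora2a, the adenosine receptor of the neurons that make enkephalin, had 0.767, 0 and 0 in VTA libraries, against 12.5, 20.7 and 12.6 in NAc libraries (log2 difference -3.71 ± 0.59, adjusted p = 0.000587). Both passed without VTA replicate 3 and after quantile normalization.

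Tac1, the precursor of substance P and a marker of the other class of projection neurons, had no read in VTA libraries and 7.58, 5.59 and 4.68 in NAc libraries (adjusted p = 0.00740, and 0.0555 after quantile normalization). Drd1, the dopamine receptor of that class, had no read in VTA libraries and 3.14, 1.93 and 0.290 in NAc libraries, and did not pass (adjusted p = 0.121). Drd2, the dopamine receptor of the enkephalin class and an autoreceptor of dopaminergic neurons, had no read in VTA libraries and 2.78, 8.08 and 2.12 in NAc libraries. Drd2 was at least 35.9-fold lower in VTA libraries (adjusted p = 0.0420), and did not pass without VTA replicate 3 (adjusted p = 0.122) or after quantile normalization (adjusted p = 0.286).

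Bcl11b, a transcription factor of striatal neurons, had 0.0111, 0 and 0 in VTA libraries, against 2.23, 14.7 and 8.37 in NAc libraries (log2 difference -2.96 ± 0.49, adjusted p = 0.000749). Meis2, another of their transcription factors, had 0, 0.0599 and 1.53 in VTA libraries, against 8.84, 11.4 and 8.28 in NAc libraries (log2 difference -2.91 ± 0.50, adjusted p = 0.000955). After quantile normalization the log2 difference of Meis2 was -1.37 and did not pass (adjusted p = 0.304). Ppp1r1b, the phosphatase inhibitor DARPP-32, was the marker with the highest values in VTA replicates 1 and 2. It had 15.7, 19.6 and 0.0329 in VTA libraries, against 22.6, 63.9 and 59.5 in NAc libraries, and passed with all libraries (adjusted p = 0.0413) but not without VTA replicate 3 (adjusted p = 0.291) or after quantile normalization (adjusted p = 0.202).

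Of 15 pan-neuronal genes 7 were lower, 5 without VTA replicate 3, against 13.4% and 4.71% of all genes, and 8 did not pass with all libraries. After quantile normalization 2 were lower, against 2.34% of all genes. The median log2 difference of the list was -2.13 with all libraries, -1.18 without VTA replicate 3 and -0.62 after quantile normalization. Tubb3, neuronal tubulin, had 5.08, 5.92 and 0.310 in VTA libraries, against 76.9, 49.5 and 87.8 in NAc libraries (log2 difference -4.21 ± 0.81, adjusted p = 0.00201). Nefm, a neurofilament of large axons, did not pass and overlapped, with 5.13, 2.33 and 0.150 in VTA libraries against 3.20, 0.618 and 4.36 in NAc libraries (adjusted p = 0.866). Of 12 GABAergic markers tested 5 were lower, 4 without VTA replicate 3, against 13.4% and 4.71% of all genes, and 2 after quantile normalization, against 2.34%. Gad2, an enzyme that makes GABA, had 0.169, 0.0205 and 0 in VTA libraries, against 17.6, 8.66 and 9.17 in NAc libraries (log2 difference -3.53 ± 0.63, adjusted p = 0.00122).

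Of 18 synaptic vesicle genes 9 were lower, 6 without VTA replicate 3, against 13.4% and 4.71% of all genes. After quantile normalization 1 was lower, against 2.34% of all genes, and the list's median was -0.61, in place of -1.80 with all libraries. Cplx2, a complexin that controls vesicle fusion, had 5.01, 5.91 and 0.0391 in VTA libraries, against 21.4, 32.6 and 35.3 in NAc libraries (log2 difference -3.10 ± 0.68, adjusted p = 0.00482). After quantile normalization the log2 difference of Cplx2 was -1.76 and did not pass (adjusted p = 0.0623). Gnao1, the alpha subunit of the G protein Go that is abundant in neurons, had 1.22, 0.501 and 0.00873 in VTA libraries, against 43.1, 69.7 and 45.7 in NAc libraries (log2 difference -5.13 ± 0.58, adjusted p = 4.08e-05). Camk2a, a kinase of excitatory synapses, had 8.49, 1.55 and 0.0129 in VTA libraries, against 73.2, 62.1 and 77.6 in NAc libraries (log2 difference -4.63 ± 0.65, adjusted p = 0.000224).

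Regional transcription factors direct how the forebrain and the midbrain are laid out. Of 12 regional factors tested 4 were lower in VTA libraries, 2 without VTA replicate 3, against 13.4% and 4.71% of all genes, and none was higher. After quantile normalization none was lower, and the list's median was -0.05, in place of -0.71 with all libraries. Lhx2, of the developing forebrain, had no read in VTA libraries and 2.60, 7.94 and 5.19 in NAc libraries (at least 75.0-fold lower, adjusted p = 0.0110, and 0.0749 after quantile normalization). Dlx6, of GABAergic forebrain neurons, had 0.0761, 0 and 0.0406 in VTA libraries, against 2.69, 6.68 and 7.59 in NAc libraries (log2 difference -2.59 ± 0.56, adjusted p = 0.00436). After quantile normalization the log2 difference of Dlx6 was -0.87 and did not pass (adjusted p = 0.560). Of 10 transcription factors of midbrain dopaminergic neurons, only 3 passed the filter on low values. No gene of the 10 in the list of VTA-enriched dopaminergic genes passed with all libraries or without VTA replicate 3, and their median with all libraries was 0.00. After quantile normalization 1 was higher, against 1.44% of all genes. Vip, Grp and Neurod6 of this list had no read in any VTA or NAc library at P30. Their fitted differences of 0 set the median, which is thus no measure of equal levels.

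Members of the glial and vascular lists were also lower in VTA libraries. Of 17 astrocyte markers, 7 were lower with all libraries and 7 without VTA replicate 3, against 13.4% and 4.71% of all genes. After quantile normalization 6 were lower, against 2.34%. Slc1a2, the main glutamate transporter of astrocytes, had 57.1, 35.3 and 40.5 in VTA libraries, against 246, 267 and 246 in NAc libraries. Its log2 difference was -2.51 ± 0.46 (adjusted p = 0.00131), and VTA replicate 3 lay with the other VTA libraries. Slc1a3, the second glutamate transporter of these cells, had 31.6, 28.0 and 0.237 in VTA libraries, against 208, 331 and 225 in NAc libraries (log2 difference -4.57 ± 0.77, and -3.02 without VTA replicate 3).

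Mfge8, a secreted bridging protein that tags cells for phagocytosis and is made by astrocytes, had 73.3, 54.2 and 0.103 in VTA libraries, against 575, 612 and 751 in NAc libraries. The log2 difference was -5.28 ± 0.93 with all libraries and -3.33 without VTA replicate 3 (adjusted p = 0.00110 and 0.000207). Grm3, a metabotropic glutamate receptor of astrocytes and neurons, had 9.96, 2.88 and 0.0633 in VTA libraries, against 79.0, 97.5 and 94.3 in NAc libraries (log2 difference -4.67 ± 0.71, adjusted p = 0.000457). The 6 astrocyte markers used for the check of cell types summed to 826, 493 and 110.2 in VTA libraries and 1792, 2584 and 1994 in NAc libraries, and their part in these differences was not tested.

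Of 12 markers of oligodendrocyte precursors 6 were lower, 2 without VTA replicate 3, against 13.4% and 4.71% of all genes. After quantile normalization 2 were lower, against 2.34%. Sox10, a transcription factor of the oligodendrocyte lineage, had 0.829, 0.315 and 0 in VTA libraries, against 22.2, 15 and 12.5 in NAc libraries (log2 difference -3.67 ± 0.78, adjusted p = 0.00395). None of 15 myelin markers passed with all libraries, and 1 was lower without VTA replicate 3, against 4.71% of all genes. Mag, a protein of myelin, had 24.3, 26.9 and 242 in VTA libraries, against 16.4, 16.0 and 24.4 in NAc libraries (adjusted p = 0.147), with VTA replicate 3 far above the other libraries.

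Of 15 endothelial markers 9 were lower, but 2 without VTA replicate 3, against 13.4% and 4.71% of all genes. After quantile normalization 2 were lower, against 2.34%. Tek, an endothelial receptor, was 1 of the 2 lower without VTA replicate 3. It had 0, 0.204 and 0 in VTA libraries, against 6.89, 4.37 and 4.72 in NAc libraries (log2 difference -2.55 ± 0.63, adjusted p = 0.0107, and 0.0815 after quantile normalization). Pdgfrb, a receptor of pericytes, had 1.25, 0.220 and 0 in VTA libraries, against 22.7, 29.2 and 20.3 in NAc libraries (log2 difference -4.15 ± 0.67, adjusted p = 0.000638). Of 19 genes of cholesterol and lipid handling 8 were lower, 5 without VTA replicate 3, against 13.4% and 4.71% of all genes. After quantile normalization 5 were lower, against 2.34%. Fdft1, squalene synthase, had 15.3, 6.80 and 0.0228 in VTA libraries, against 31.5, 65.4 and 40.6 in NAc libraries (log2 difference -3.14 ± 0.69, adjusted p = 0.00477), and its log2 difference was -1.99 without VTA replicate 3 and -2.06 after quantile normalization.

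**Figure D3:**
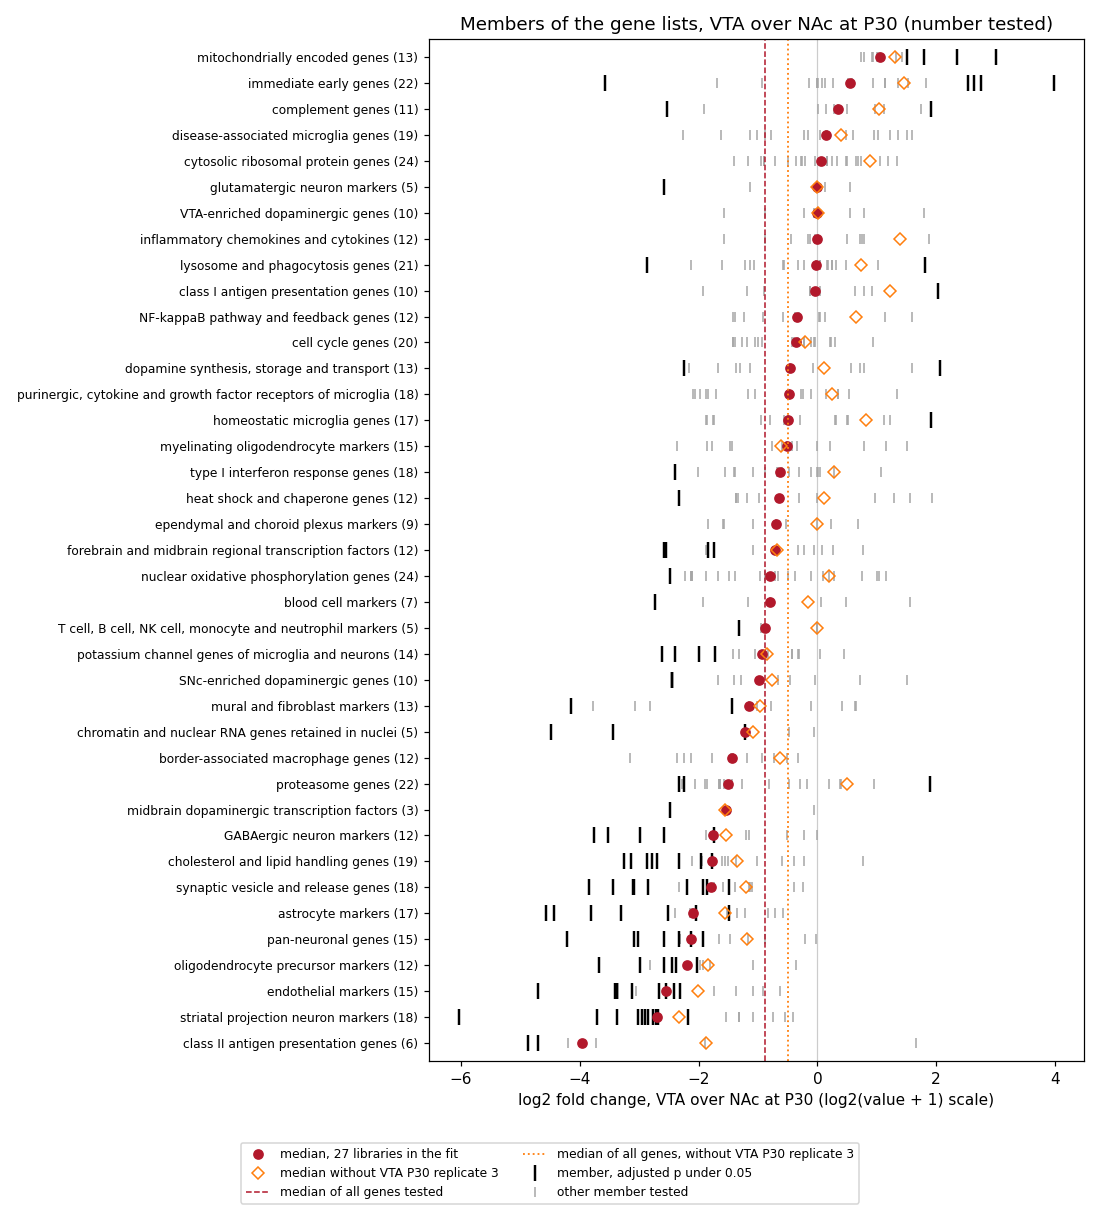
Log2 difference between VTA and NAc libraries at P30 on the log2(value + 1) scale, for the members of each gene list tested (ticks, black where the adjusted p was under 0.05), with the list's median with all libraries (red circle) and without VTA replicate 3 (open diamond). Dashed and dotted lines give the medians of all genes, -0.88 and -0.49, and the mitochondrially encoded and immediate early genes lie to the right of them while the striatal, endothelial and astrocyte markers lie to the left.

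Further genes with large decreases were not members of a list. Dkk3 (chr7:112116017-112159057), a secreted glycoprotein of the Dickkopf family, had 0, 0.680 and 0.0574 in VTA libraries, against 88.4, 66.2 and 57.7 in NAc libraries (log2 difference -5.87 ± 0.71, adjusted p = 5.75e-05). Crym, a protein that binds thyroid hormone, had no read in VTA libraries and 16.0, 55.3 and 62.6 in NAc libraries, so it was at least 493-fold lower (adjusted p = 0.000335). Cyp4f15 and Cyp4f14, cytochromes P450 of the same family, were both lower. Cyp4f15 had 0, 2.74 and 0 in VTA libraries, against 65.1, 92.1 and 58.6 in NAc libraries (log2 difference -5.53 ± 0.94, adjusted p = 0.000833). Cyp4f14 had no read in VTA libraries and 27.1, 42.2 and 17.5 in NAc libraries (at least 227-fold lower, adjusted p = 0.00143). Members of this family are alike in sequence, and their reads may be shared.

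Mir5616 (chr4:149537863-149537922) is annotated as a microRNA hairpin of 60 bases. It had no read in VTA libraries and 29.5, 121 and 15 in NAc libraries (at least 10.8-fold lower, adjusted p = 0.000224). So short a gene reaches high FPKM from few reads, and SMART-seq2 does not select for microRNAs, so the value cannot be read as a level of the mature microRNA.

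Among genes outside the lists that were higher, Sub1, a transcriptional coactivator, had 45.1, 63.4 and 51.3 in VTA libraries, against 22.0, 15.5 and 9.86 in NAc libraries (log2 difference 1.75 ± 0.48, adjusted p = 0.0192). Myl12a, a regulatory light chain of non-muscle myosin, had 31.3, 47.1 and 34.8 in VTA libraries, against 11.9, 12.2 and 8.36 in NAc libraries (log2 difference 1.71 ± 0.47, adjusted p = 0.0191). Sub1 and Myl12a also passed after quantile normalization. Camk1, a calcium dependent kinase, had 224, 211 and 127 in VTA libraries, against 15.6, 111 and 90.4 in NAc libraries (log2 difference 1.72 ± 0.56, adjusted p = 0.0431). Atp6v1g1, a subunit of the vacuolar proton pump, had 290, 307 and 873 in VTA libraries, against 118, 186 and 104 in NAc libraries (log2 difference 1.69 ± 0.43, adjusted p = 0.0125). Camk1 and Atp6v1g1 did not pass after quantile normalization (adjusted p = 0.123 and 0.0749).

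The difference between VTA and NAc libraries at P30 was then set against that at P7 and at P60. The genes were the 5 plotted genes with the largest change in each direction and the dopaminergic genes. The titles give libraries of 1 age a shared code that differs between ages, so age and that code cannot be told apart. The comparisons share the P30 libraries, and choosing genes by a large difference at P30 favours a gap to the other ages. Over all genes, 265 (1.4%) differed between P30 and P60 in their regional difference, 12 (0.0635%) with a higher and 253 (1.34%) with a lower value at P30. Between P30 and P7, 2934 (15.5%) differed, 360 (1.91%) with a higher and 2574 (13.6%) with a lower value at P30. Without VTA P30 replicate 3 the counts were 53 and 2718.

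Ier2 was higher in NAc libraries at P7, and higher in VTA libraries at both later ages. At P7 it averaged 449 ± 160 in VTA libraries and 1521 ± 58.5 in NAc libraries (SD, n = 3 each). At P60 it averaged 824 ± 217 in VTA libraries and 95.0 ± 53.0 in NAc libraries. The log2 difference at P30 exceeded that at P7 by 4.45 ± 0.86 (adjusted p = 0.00125), and did not differ detectably from that at P60 (adjusted p = 0.731).

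Egr1 showed the same order of regions. At P7 it averaged 134 ± 29.9 in VTA libraries and 826 ± 30.5 in NAc libraries. At P60 it averaged 433 ± 264 in VTA libraries and 61.8 ± 34.8 in NAc libraries. The log2 difference at P30 exceeded that at P7 by 5.17 ± 0.98 (adjusted p = 0.00103). The regional difference of C1qc also changed sign between P7 and P30, since C1qc averaged 784 ± 83.8 in VTA libraries and 2739 ± 108 in NAc libraries at P7, and 3650 ± 621 in VTA libraries and 1577 ± 728 in NAc libraries at P60.

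For Penk the VTA libraries were lower at each age, with 6.94 ± 8.48 in VTA libraries and 66.8 ± 25.1 in NAc libraries at P7, and 8.31 ± 5.36 in VTA libraries and 127 ± 74.3 in NAc libraries at P60. Neither age differed from P30 past the threshold (adjusted p = 0.0915 for P7 and 0.214 for P60). Dkk3 was lower in VTA libraries at P30 and P60 but averaged 19.3 ± 6.87 in VTA libraries and 8.45 ± 2.62 in NAc libraries at P7. Its log2 difference at P30 minus that at P7 was -6.95 ± 1.01 (adjusted p = 0.000173). Crym had lower values in VTA libraries at all 3 ages, with 0.268 ± 0.356 in VTA libraries and 2.48 ± 0.478 in NAc libraries at P7, and 1.17 ± 1.03 in VTA libraries and 81.0 ± 48.0 in NAc libraries at P60.

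mt-Atp8 and mt-Atp6 were higher in VTA libraries at P30 and had lower means there at P60. At P60 mt-Atp6 averaged 235 ± 118 in VTA libraries and 654 ± 279.5 in NAc libraries, and its log2 difference at P30 exceeded that at P60 by 3.85 ± 0.85 (adjusted p = 0.0299). Without VTA P30 replicate 3 this adjusted p was 0.0544. Of the dopaminergic genes, Nr4a2 was the only one of the 5 whose regional difference at P30 differed from that at another age past the threshold, as it averaged 14.2 ± 4.05 in VTA libraries and 1.98 ± 1.33 in NAc libraries at P7 (difference between the ages -3.98, SE 0.86, adjusted p = 0.00308).

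**Figure D4:**
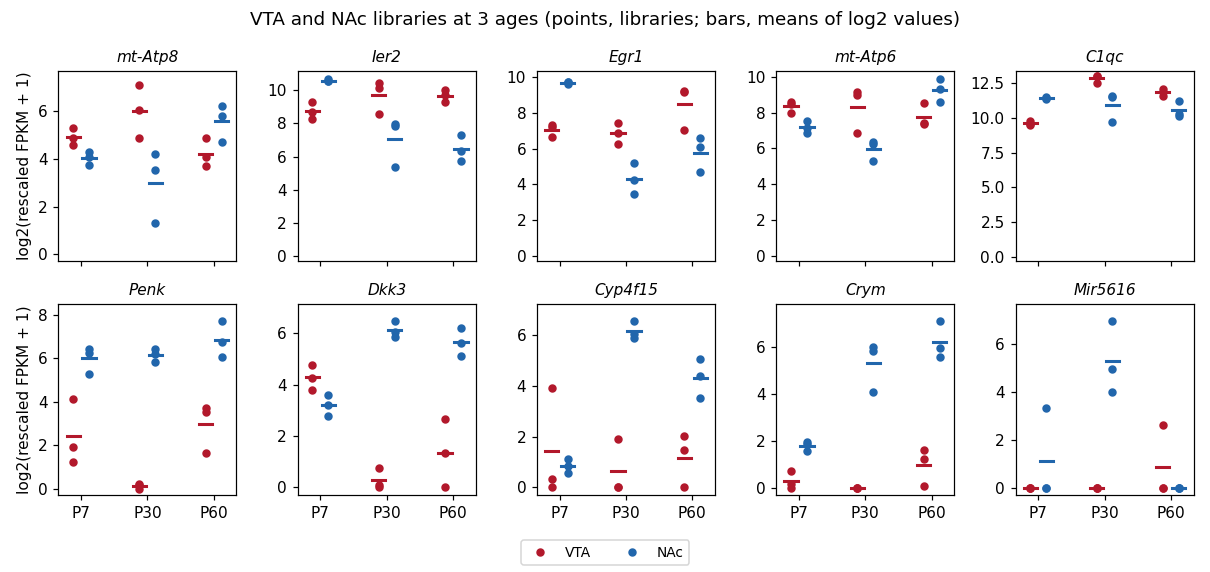
Rescaled FPKM as log2(value + 1) in VTA (red) and NAc (blue) libraries at P7, P30 and P60, with a point for each library and bars for the mean of the log2 values. Ier2, Egr1 and C1qc were higher in NAc libraries at P7 and higher in VTA libraries at P30, and Penk and Crym were lower in VTA libraries at each age.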

How the data were processed

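RNA was measured by SMART-seq2 with Illumina sequencing. HISAT2 and the build GRCm38/mm10 are listed in the submitters' processing notes. The tool that counted reads and its annotation were not given in the sources used here. Per the file headers, FPKM were deposited for 54532 genes. The deposited column of VTA P30 replicate 3 holds a signal on a different scale, as FPKM computed with 186473 in place of its number of reads. Gene lengths in bases come from the deposited table.

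A lost capital M was put back into the gene IDs. Symbols were taken by ID from GENCODE M21 (54495 of 54532), because only 443 deposited names belong to the ID beside them. Every library was divided by its sum of FPKM times length in kb. With its divisor, FPKM times length gave whole reads for 100% of the values (tolerance 0.02). Tests covered 18888 genes that reached 1 after rescaling in 3 or more of the 27 libraries. limma 3.58.1 (trend and robust; R 4.3.3, statmod 1.5.0) used log2(value + 1), with each of the 9 groups as a term, Benjamini-Hochberg adjustment over all genes and an adjusted p of 0.05 as the limit. The pseudocount shrinks differences of weakly expressed genes, and a fitted difference is no bound where a region has no read. Bounds take 3 reads per library, averaged over libraries, and cover counting error only. Python 3.11.15, pandas 2.3.3, numpy 2.4.6, scipy 1.17.1 and matplotlib 3.10.9 served the other steps, and the limma steps were tested on simulated data.

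The libraries compared, the 39 gene lists (547 distinct symbols, 1 of them not matched) and the rules were chosen with earlier results of these data known. The 12 genes named for the largest change in each direction had an adjusted p under 0.05, no overlap between regions, a mean of at least 5, a call in the same direction without VTA P30 replicate 3, and no predicted-gene, clone or pseudogene name. Added to them were up to 4 members of a list with the smallest adjusted p, the defining markers of cell types, and in every case the 5 dopaminergic genes tested in the check of the label. Jun, Fos, Trem2, C1qb, Cx3cr1, Csf1r, H2-D1, Tac1, Ppp1r1b, Nefm, Mag, Ccl12, Il1a, Drd1, Vip, Grp, Neurod6, Npas4 and Ciita were named after their values were seen. Alternatives were the deposited scale, quantile normalization, a pseudocount of 0.1, other filters, the compared libraries alone, voom with sample weights on the recovered reads, the replicate number as a block, and each library left out. Quantile normalization without VTA P30 replicate 3 was added after seeing the data. Some results on single genes are not reported here.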

Additional observations from a re-analysis of the deposited data

Results flagged for a closer look

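The difference between VTA and NAc libraries at P30 was tested against the same difference at the other ages for 15 genes. Of these, 10 differed at 1 or both ages (limma, adjusted over all genes). Over all genes, 1.4% differed against P60 and 15.5% against P7. All but the 5 dopaminergic genes were chosen for a large difference at P30, which favours a gap to the other ages.

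Against P7, the log2 difference at P30 was larger by 5.17 for Egr1, 4.45 for Ier2 and 3.73 for C1qc, and each of these genes was higher in NAc libraries at P7. The P30 minus P7 value was -6.95 for Dkk3, -6.12 for Cyp4f15, -4.17 for Mir5616, -3.98 for Nr4a2 and -3.82 for Crym. Cyp4f15 averaged 4.82 ± 8.10 in VTA libraries and 0.80 ± 0.334 in NAc libraries at P7, with 1 VTA library at 14.2 and the others at 0.275 or 0. Against P60, the log2 difference at P30 was larger by 4.37 for mt-Atp8 and by 3.85 for mt-Atp6, and the P30 minus P60 value was -6.17 for Mir5616, which had reads in only 1 of the 6 VTA and NAc libraries at P60. Without VTA P30 replicate 3 the adjusted p against P60 was 0.0544 for mt-Atp8 and for mt-Atp6, and the other differences named here passed.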

How the results depend on the processing

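Of the 24 plotted genes with the largest differences, 24 passed in the same direction on the deposited scale and 17 after quantile normalization. With the compared libraries alone 9 passed. All 9 were lower in VTA libraries, so none of the plotted higher genes passed in that fit. A call without VTA replicate 3 was a condition of choosing the 24 genes. The count of genes that passed was 1366 on the deposited scale (385 higher, 981 lower), 714 after quantile normalization (272 higher, 442 lower), 381 with the compared libraries alone (1 higher, 380 lower) and 511 after quantile normalization without VTA replicate 3 (194 higher, 317 lower), and voom on the recovered reads called 2768, of which 345 were higher. Leaving out each library gave 1004 to 3177 genes, 34 to 156 higher and 889 to 3021 lower. The total fell to 1004 without VTA replicate 3 and to 1671, 1539 and 1631 without NAc replicates 1, 2 and 3. Without VTA replicate 1, 156 genes were higher. Without NAc replicates 1, 2 and 3, 43, 47 and 34 were.

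The P30 difference minus that at P60 passed for 36 genes on the deposited scale, 84 after quantile normalization, 130 with a pseudocount of 0.1, 6 with the compared libraries alone, 823 with voom, 50 with the replicate block, 54 after quantile normalization without VTA replicate 3, and 53 to 846 leaving out each library. Against P7 it passed for 1853 genes after quantile normalization and 2344 to 2965 leaving out each library. The main fit did not pair libraries by replicate number. The deviations of same-numbered libraries correlated at -0.00167, -0.0278 and -0.0556, and those of other pairs at -0.0426 to 0.0479. With so few libraries per region, these values cannot tell whether libraries share mice. With the replicate block 2490 genes passed at P30 (91 higher, 2399 lower).

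Some values changed sign, none of them past the threshold under that alternative. The log2 difference of Cspg5 was 0.00 on the deposited scale, Kcnq1ot1 0.46 and Nr4a2 0.10 after quantile normalization, and Slc18a2 -0.58 with voom and -0.34 to 2.56 leaving out a library, lowest without VTA replicate 3. The differences against P60 were 1.77 for Ier2, 2.16 for Egr1 and 0.35 for Crym on the deposited scale, 0.08 for Egr1 and 0.10 for Crym after quantile normalization, and 0.02 for Egr1 after quantile normalization without VTA replicate 3. Leaving out a library, they were -0.58 to 0.29 for Egr1, -0.68 to 0.27 for Crym, -0.27 to 0.83 for Slc6a3 (-0.47 with a pseudocount of 0.1) and -0.57 to 2.33 for Slc18a2 (-0.72 with voom). Against P7 they were -1.42 with voom, -1.12 to 1.78 leaving out a library and -0.11 after quantile normalization without VTA replicate 3 for Slc18a2, and -0.09 for mt-Atp6 under that last setting. The causes were not tested. VTA replicate 3 limits every gene of low level, since most of its genes have no read.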

Other observations

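Genes named here were chosen after their values were seen. The ferritin pseudogenes Ftl1-ps1 and Ftl2-ps, near-identical copies of Ftl1, were higher in VTA libraries together with it, with log2 differences of 2.78 and 3.41 (limma adjusted p = 0.00230 and 0.000545), against 1.87 for Ftl1. Reads that could belong to any of these copies cannot be told apart.

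Of 5 long or chromatin-bound RNAs kept in the nucleus, 3 were lower in VTA libraries with all libraries and 2 without VTA replicate 3, against 13.4% and 4.71% of all genes. Snhg11, a noncoding RNA of neurons, had 0.361, 0.621 and 0.0906 in VTA libraries, against 54.6, 17.4 and 25.1 in NAc libraries (log2 difference -4.48 ± 0.62, adjusted p = 0.000216, and -2.96 after quantile normalization). Meg3, an imprinted noncoding RNA abundant in neurons, had 6.34, 3.05 and 36.5 in VTA libraries, against 158, 85.8 and 102 in NAc libraries (log2 difference -3.44 ± 0.60, adjusted p = 0.00100). Of 14 potassium channel genes tested, 4 were lower with all libraries and 2 without VTA replicate 3, against 13.4% and 4.71% of all genes, and none was lower after quantile normalization, where the list's median was 0.22. Kcna2, a channel of axons, had 0.250, 0.758 and 0.0243 in VTA libraries, against 5.33, 8.34 and 4.64 in NAc libraries (log2 difference -2.40, adjusted p = 0.00164). After quantile normalization Kcna2 was at -0.73 and did not pass (adjusted p = 0.497).

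Of 13 genes of dopamine synthesis, storage and transport tested, 1 was higher in VTA libraries and 1, Drd2, was lower. The shares of all genes were 0.503% and 13.4%. None passed without VTA replicate 3, and the list's median was -0.47 with all libraries and 0.11 without that library. The higher gene was Qdpr, which recycles the cofactor of tyrosine hydroxylase. It had 46.1, 94.1 and 521 in VTA libraries, against 20.6, 44.6 and 31.6 in NAc libraries (log2 difference 2.06 ± 0.65, adjusted p = 0.0362), and did not pass without VTA replicate 3 (log2 difference 1.08, adjusted p = 0.187) or after quantile normalization (adjusted p = 0.0529). Of 22 proteasome genes, Psmb1 was higher and Psmd1 and Psmd2 were lower, against 0.503% and 13.4% of all genes. Without VTA replicate 3 none was higher and 1, Psmd2, was lower, against 0.609% and 4.71% of all genes, and Psmd1 did not pass (adjusted p = 0.236). Psmb1, a subunit of the core, had 44.3, 41.5 and 299.9 in VTA libraries, against 29.0, 12.8 and 25.7 in NAc libraries, with VTA replicate 3 far above the others. Its log2 difference was 1.90 with all libraries (adjusted p = 0.0369) and 0.98 without VTA replicate 3 (adjusted p = 0.169). None of 24 cytosolic ribosomal protein genes and none of 20 cell cycle genes passed with all libraries. Without VTA replicate 3, 1 ribosomal protein gene was higher, against 0.609% of all genes.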
